A study of Medicago truncatula with 15 samples.

Results

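The genes described here are 4 loci of *Medicago truncatula* whose Arabidopsis homologs are bound by SOC1 and whose transcripts were lower in shoot apices of the triple *Mtsoc1* mutant than in those of the WT. They are Medtr5g066730, a homolog of the BTB/POZ domain protein gene AT2G30600, Medtr5g024450 and Medtr2g070020, both homologs of the leucine-rich repeat receptor kinase gene AT4G08850, and Medtr6g037340, a homolog of AT5G16010 in the steroid 5-alpha-reductase family. The loci were fixed by name, 4 of the 50021 loci in the count table, and they hold 5 of its 57124 transcripts. Because the genes were taken from the comparison of the triple mutant with the WT, their values in that comparison are a description and carry no test.

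The RNA-seq data comprise 15 libraries in 5 groups of 3, all in the R108 background. Shoot apices came from 83-day-old plants of the CRISPR-Cas9 triple mutant of *MtSOC1a*, *MtSOC1b* and *MtSOC1c*, and from *Mtsoc1a* and WT plants 15 days old; fully expanded leaves came from *Mtsoc1a* and WT plants of that same age. *Mtsoc1a* carries a *Tnt1* retrotransposon insertion, and the triple mutant plants were the non-flowering segregants of 1 line, whose name in the sample labels (*Mtsoc1-4*) differs from that in the article. An apex library pooled 3 plants and a leaf library pooled leaves of 2 plants. The sources differ on which apex samples included the upper part of the stem: the sample labels say so of the triple mutant, and the article of the 15-day-old plants, so a difference in the tissue taken cannot be told apart from genotype. All plants had 3 weeks of vernalization and 16 h light at 22 °C and were sampled 4 h after dawn. No young triple mutant is among the samples, so genotype and age cannot be told apart in any comparison with the triple mutant. The labels describe the triple mutant libraries separately from the other 12, and whether they were prepared together is not stated.

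SOC1 is a MADS-domain transcription factor that promotes flowering by integrating photoperiod, vernalization and hormone signals at the shoot apex. Receptor kinases with leucine-rich repeats carry an extracellular repeat domain that recognises peptides and an intracellular kinase that passes the signal on; AT4G08850 is MIK2, a receptor for SCOOP peptides in Arabidopsis. Proteins with a BTB/POZ domain often act as substrate adaptors of ubiquitin ligases, and the best-known steroid 5-alpha-reductase of plants, Arabidopsis DET2, acts in the synthesis of brassinosteroids, hormones of growth. Whether the Medicago loci have these activities is not known from these data.

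Estimated counts summed to between 30574854 and 38896407 in the 12 libraries of 15-day-old plants and to between 13224488 and 15891830 in the triple mutant. *MtSOC1a* had 0 to 10 counts in *Mtsoc1a* leaves against 181 to 220 in WT leaves, and 22 to 47 counts in *Mtsoc1a* apices against 582 to 865 in WT apices, as the insertion line's label requires. It had 408 to 454 counts in the triple mutant, whose libraries were shallower, and small edits need not remove the transcript. This count therefore does not check that label. By mean CPM Medtr7g075870.2 and Medtr7g075870.1 of *MtSOC1a* had 9.08 and 13.4 in the triple mutant, against 6.23 and 9.22 in WT apices. Medtr8g033220.2 and Medtr8g033220.1 of *MtSOC1c* had 12.8 and 14.3 against 1.10 and 3.97. *MtSOC1b* had 1.95 against 2.73. These means are given without a test. All 5 apex markers (HDL, WOX9, MtTFL1c, MtFDa and MtLFY) were at 0 in every leaf library. Their summed CPM was 5.93 to 9.66 in the triple mutant, 13.6 to 21.0 in *Mtsoc1a* apices and 11.5 to 20.04 in WT apices. HDL had few counts in any group, with 0 in the triple mutant, 0 to 6 in *Mtsoc1a* apices and 4 to 14 in WT apices. The article reports HDL, MtLFY and MtFDa as reduced in this mutant, so a lower sum there was in part fixed by the choice. Mean CPM of MtFDa was 0.908 in the triple mutant and 0.886 in *Mtsoc1a* apices, while the other markers had lower means in the triple mutant. A list of 24 photosynthesis transcripts came from the study's genes higher in the triple mutant, so a higher sum there was fixed by the choice. Their summed CPM was 904 to 1669 in the triple mutant, 281 to 415 in *Mtsoc1a* apices and 240 to 396 in WT apices. In leaves it was 7570 to 9788 in *Mtsoc1a* and 4563 to 5250 in the WT. One library, *Mtsoc1a* apex replicate 3, differs in its file: 17.2% of its estimated counts are not whole numbers, against 0% in the other 14, and the authors' mean TPM of that group is by its decimals a mean of 2 libraries.

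Levels are given as CPM, the share of a library's counts after TMM scaling over all 15 libraries. At these levels the genes fell into 2 pairs. Medtr5g066730 and Medtr2g070020 were higher in the young apex than in the leaf, and Medtr5g024450 and Medtr6g037340 were higher in the leaf than in the young apex, although the excess of Medtr5g024450 was not called when libraries were scaled by their totals. On this scale Medtr5g066730 in the triple mutant overlapped the WT leaves, while the other 3 genes were below every leaf and every young apex library. Per library total, with no TMM factor, Medtr5g066730 lay above the WT leaves and Medtr2g070020 overlapped the leaves of both genotypes. None of the 4 was called between *Mtsoc1a* and the WT in either tissue.

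**Figure D1:**
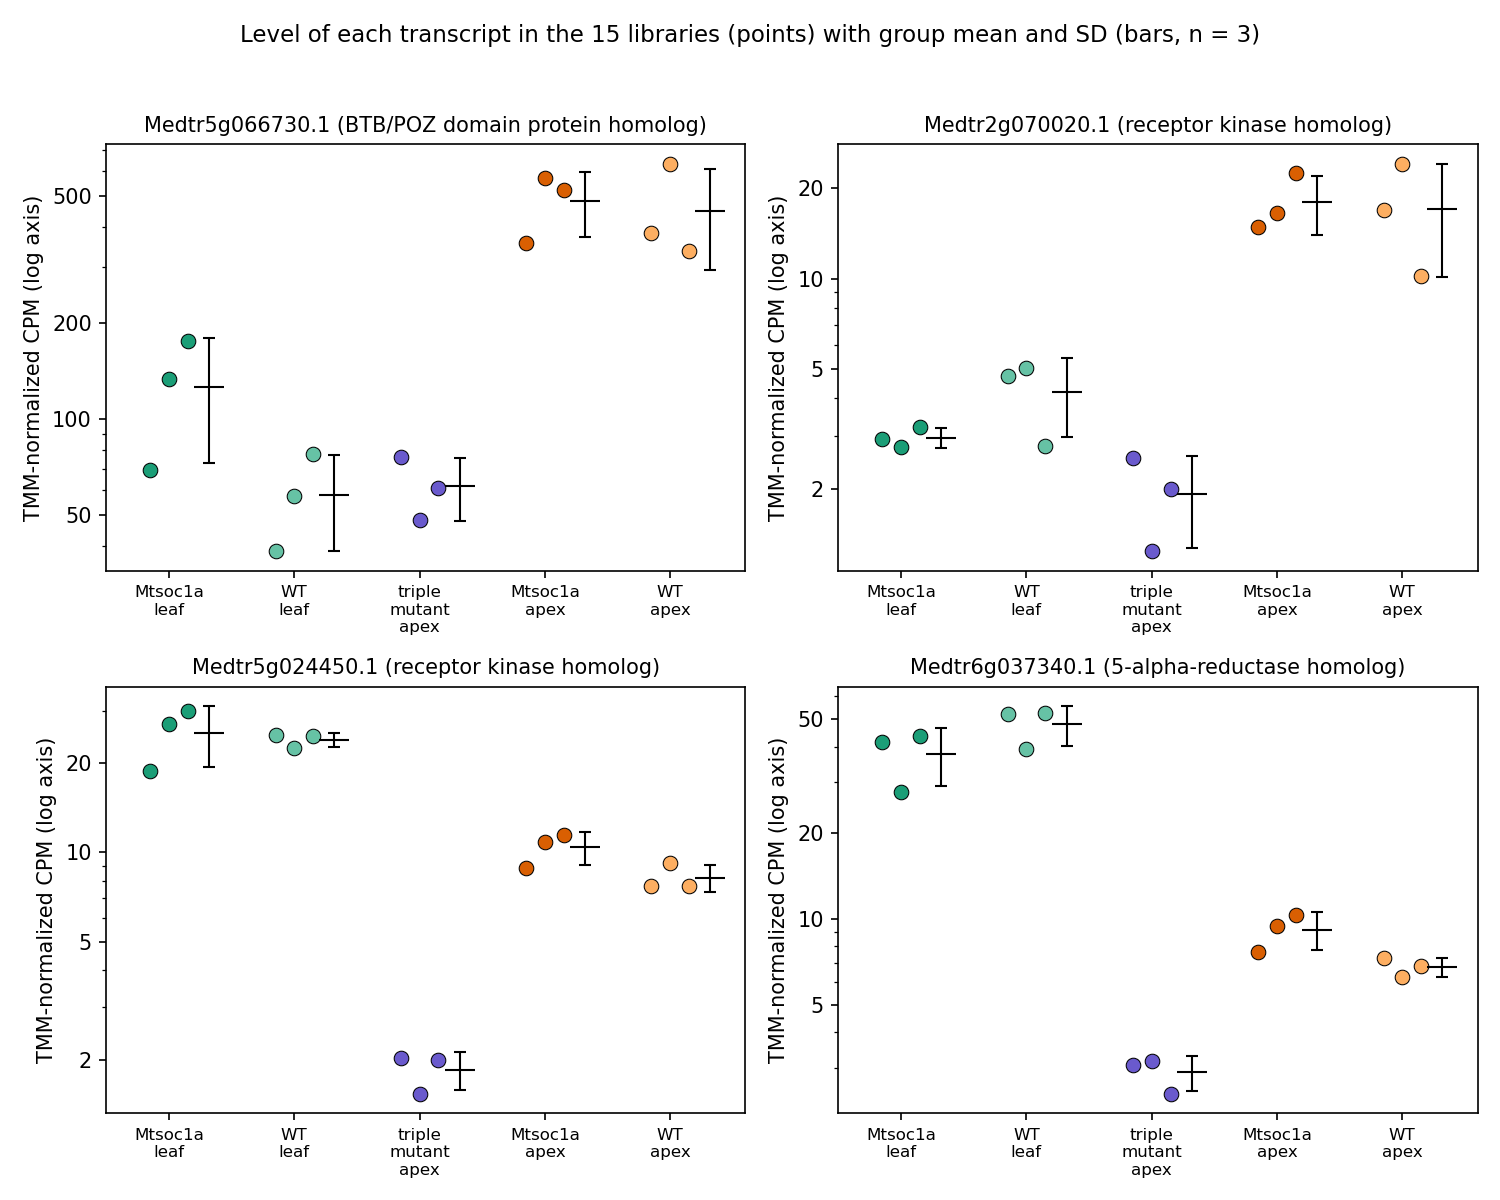
TMM-normalized CPM of the 4 detected transcripts (log axes) in each of the 15 libraries, by group. Points are libraries and bars give the mean with its SD (n = 3). On this scale the triple mutant apices lie below both young apex groups for all 4 transcripts, and at the leaf level for Medtr5g066730.1 only. Per library total Medtr5g066730.1 lies above the WT leaves and Medtr2g070020.1 overlaps the leaves.

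Medtr5g066730, the BTB/POZ domain gene, was the most abundant of the 4. All its counts fell on transcript Medtr5g066730.1; the other annotated transcript, Medtr5g066730.2, had 0 counts in all 15 libraries, which allows up to 0.0579 to 0.177 CPM depending on the library (3 counts, counting error only). In triple mutant apices Medtr5g066730.1 had 76.0, 48.5 and 61.0 CPM, against 383, 632 and 338 CPM in WT apices. The triple mutant libraries all lay below the lowest WT library, a 7.30-fold lower level (log2 fold change -2.87). In *Mtsoc1a* apices it had 358, 571 and 524 CPM, within the range of the WT apices and far above the triple mutant. Leaves had 69.5, 134 and 176 CPM in *Mtsoc1a* and 38.7, 57.6 and 77.7 CPM in the WT, so on this scale the triple mutant apices overlapped the WT leaves. Per library total, with no TMM factor, the triple mutant (62.2 to 97.5 CPM) lay above the WT leaves (25.3 to 52.9 CPM). It overlapped the *Mtsoc1a* leaves (45.2 to 113.7 CPM). By the authors' mean TPM, which corrects for transcript length, the transcript stood at 21.3 in the triple mutant, 147 in *Mtsoc1a* apices and 138 in WT apices, the last at the 96.4th percentile of the 33242 transcripts above 0 there and the first at the 78.9th of 30669.

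Medtr2g070020, a receptor kinase homolog, was likewise highest in the young apices, at a lower level. Medtr2g070020.1 had 2.53, 1.24 and 1.99 CPM in triple mutant apices, against 16.9, 24.1 and 10.2 CPM in WT apices. The groups did not overlap, with an 8.83-fold lower level in the triple mutant (log2 fold change -3.14), resting on 21 to 50 counts in each triple mutant library. *Mtsoc1a* apices had 14.9, 16.5 and 22.4 CPM, again inside the WT range. In leaves it had 2.93, 2.75 and 3.21 CPM in *Mtsoc1a* and 4.76, 5.05 and 2.78 CPM in the WT, slightly above all 3 triple mutant libraries. Per library total, with no TMM factor, the triple mutant (1.59 to 3.24 CPM) overlapped the leaves of *Mtsoc1a* (1.65 to 2.08 CPM) and of the WT (1.90 to 3.19 CPM). WT apex replicate 2 was the highest and replicate 3 the lowest of the WT apices for both Medtr2g070020.1 and Medtr5g066730.1.

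Medtr5g024450, the other receptor kinase homolog, had its highest level in leaves. Medtr5g024450.1 had 2.02, 1.53 and 1.99 CPM in triple mutant apices, against 7.68, 9.23 and 7.72 CPM in WT apices. Here too the groups were apart, with a 4.44-fold lower level in the triple mutant (log2 fold change -2.15) from 26 to 40 counts a library. *Mtsoc1a* apices had 8.89, 10.9 and 11.4 CPM, the highest 2 of them above every WT apex. Leaves had 18.7, 27.1 and 30.0 CPM in *Mtsoc1a* and 24.8, 22.4 and 24.6 CPM in the WT, which overlapped and, on this scale, lay above every apex library.

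Medtr6g037340, the 5-alpha-reductase family gene, had the smallest difference in the triple mutant and the largest excess in leaves. Medtr6g037340.1 had 3.08, 3.18 and 2.44 CPM in triple mutant apices, against 7.30, 6.27 and 6.82 CPM in WT apices. The groups did not overlap, with a 2.35-fold lower level in the triple mutant (log2 fold change -1.23). *Mtsoc1a* apices had 7.63, 9.45 and 10.3 CPM, all above the 3 WT apices. Leaves had 41.6, 27.8 and 43.7 CPM in *Mtsoc1a* and 52.0, 39.1 and 52.5 CPM in the WT, which overlapped.

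All 4 detected transcripts passed the filter on low counts in each fit. In the triple mutant against the WT all 4 were called lower, at an adjusted p of 0.05 or less in edgeR's quasi-likelihood test and a change of at least 2-fold. This is how they were chosen, so nothing is read from the count; among all 25935 transcripts tested 4.83% were called lower. The triple mutant set against *Mtsoc1a* apices shares the triple mutant libraries, and there the log2 fold changes were -2.98 for Medtr5g066730.1, -3.22 for Medtr2g070020.1, -2.49 for Medtr5g024450.1 and -1.66 for Medtr6g037340.1, with 6.77% of transcripts called lower. The summed apex markers were lower and the summed photosynthesis transcripts higher in the triple mutant than in both young apex groups. Both lists rest at least partly on genes the study reported as changed that way, so nothing is read from these sums. The part of tissue make-up in the values of the 4 genes was not tested. In bulk tissue, fewer cells of a type and less RNA per cell cannot be told apart. On the TMM scale the triple mutant lay below the leaf libraries as well as the young apices for Medtr2g070020.1, Medtr5g024450.1 and Medtr6g037340.1. Per library total Medtr2g070020.1 overlapped the leaves. The share of all transcripts with such an order was not counted. The genes were chosen for low values in the triple mutant, so nothing is read from this order.

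**Figure D2:**
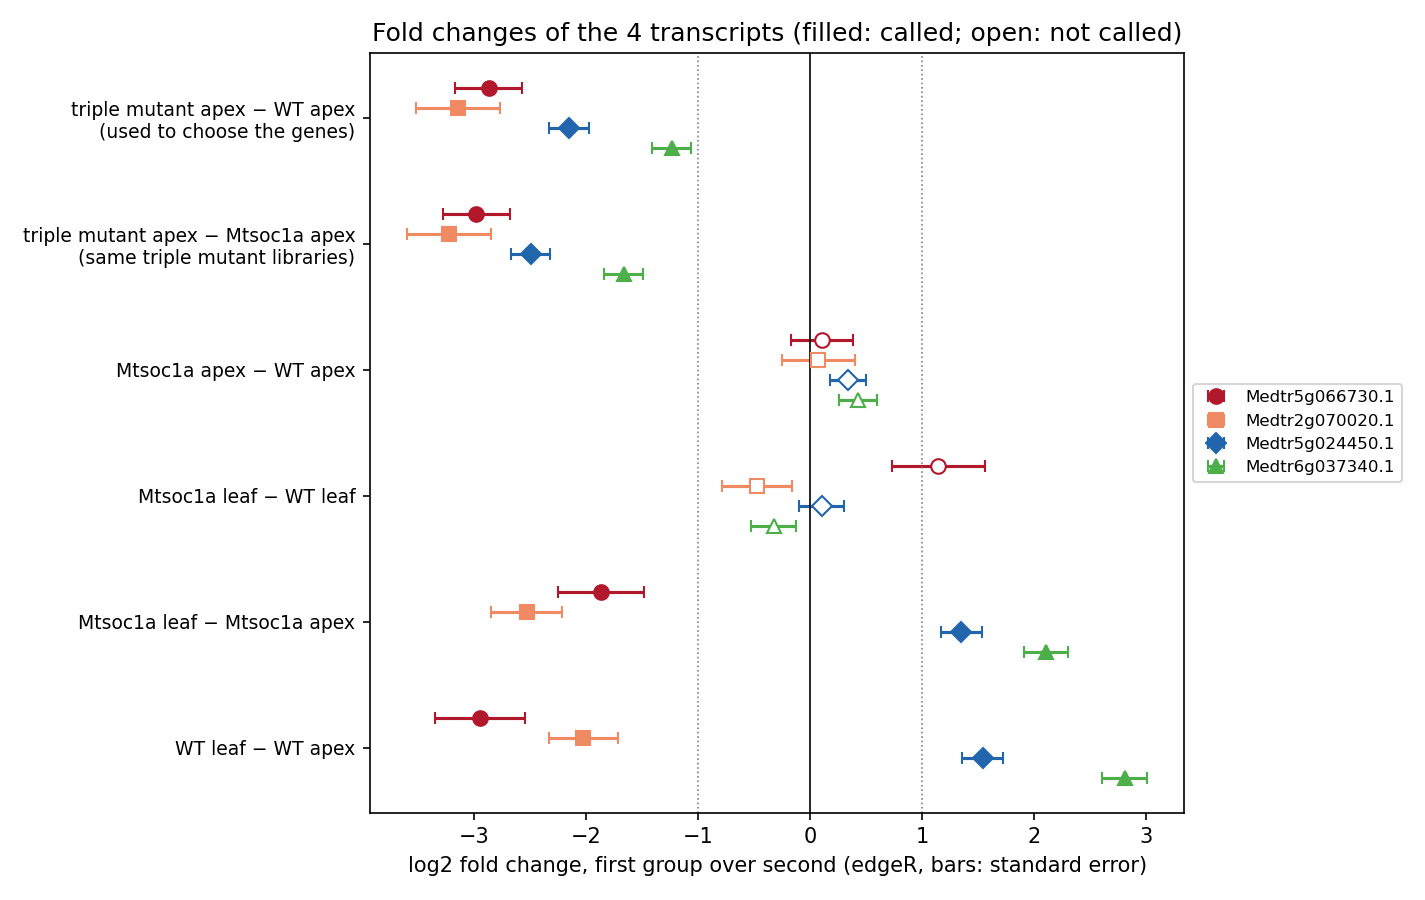
Log2 fold changes of the 4 transcripts in 6 comparisons (edgeR; bars are standard errors, dotted lines mark a 2-fold change). Filled symbols were called and open symbols were not; all 4 lie at or below -1.23 in both comparisons with the triple mutant, and none was called between *Mtsoc1a* and the WT.

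Loss of *MtSOC1a* alone was compared with the WT in apices and in leaves. In apices 0 of the 4 transcripts were called with edgeR, where 0.0154% of all transcripts were called, 4 in all, and DESeq2 called none of the 4 either. The log2 fold changes were 0.11 for Medtr5g066730.1 (95% interval -0.53 to 0.74), 0.08 for Medtr2g070020.1 (-0.67 to 0.82), 0.34 for Medtr5g024450.1 (-0.02 to 0.71) and 0.43 for Medtr6g037340.1 (0.05 to 0.81). For Medtr6g037340.1 the 3 *Mtsoc1a* libraries all exceeded the 3 WT libraries, but the share of all transcripts with such a separation was not counted. Medtr6g037340.1 was the only one of the 4 with an unadjusted p under 0.05 (edgeR adjusted p = 0.449). Of all 25935 transcripts 2615 had an unadjusted p under 0.05. The WT apex libraries of this comparison also served to choose the genes.

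In leaves 0 of the 4 were called with edgeR or with DESeq2, against 0.05% of all transcripts in edgeR. Medtr5g066730.1 averaged 126 ± 53.4 CPM in *Mtsoc1a* leaves and 58.0 ± 19.5 CPM in WT leaves (SD, n = 3 each). Its log2 fold change was 1.15 (95% interval 0.13 to 2.16, edgeR adjusted p = 0.489), and the lowest *Mtsoc1a* leaf library was below the highest WT leaf library. It was the only one of the 4 with an unadjusted p under 0.05, as were 2022 of all 21993 transcripts. The log2 fold changes of the others were 0.11 for Medtr5g024450.1 (-0.37 to 0.58), -0.47 for Medtr2g070020.1 (-1.20 to 0.27) and -0.32 for Medtr6g037340.1 (-0.81 to 0.16).

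The difference between the *Mtsoc1a* effect in leaves and that in apices was tested in one fit of the 12 libraries of 15-day-old plants, and 0 of the 4 were called with edgeR or DESeq2 (0.0337% of all transcripts in edgeR). The largest differences were 1.08 on the log2 scale for Medtr5g066730.1 (95% interval -0.09 to 2.26, edgeR adjusted p = 0.645) and -0.70 for Medtr6g037340.1 (-1.29 to -0.12, edgeR adjusted p = 0.541). Only Medtr6g037340.1 had an unadjusted p under 0.05, as did 2136 of all 26683 transcripts.

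Leaves and apices of the same age were compared within each genotype. All 4 transcripts were called in both genotypes with edgeR, 2 lower and 2 higher in the leaf. Such calls were common: in *Mtsoc1a* 22% of transcripts were called lower and 19.5% higher in the leaf, and in the WT 22.7% and 19.4%. Medtr5g066730.1 was lower in the leaf by 1.87 ± 0.39 on the log2 scale (SE) in *Mtsoc1a* (log2 fold change -1.87, edgeR adjusted p = 0.00176), and its value in the WT was -2.95 ± 0.40 (adjusted p = 8.89e-05). Medtr2g070020.1 had -2.53 ± 0.32 in *Mtsoc1a* (adjusted p = 4.22e-05) and -2.02 ± 0.31 in the WT (adjusted p = 0.000194). Medtr5g024450.1 was higher in the leaf, with 1.35 ± 0.18 in *Mtsoc1a* (adjusted p = 7.21e-05) and 1.54 ± 0.18 in the WT (adjusted p = 2.70e-05). Medtr6g037340.1 had the largest leaf excess, 2.11 ± 0.19 in *Mtsoc1a* (adjusted p = 3.85e-06) and 2.81 ± 0.20 in the WT (adjusted p = 4.69e-07). The WT apex libraries of this comparison also served to choose the genes, whereas no library of the *Mtsoc1a* comparison did.

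The size of the tissue difference depended on how leaf and apex libraries were scaled. TMM factors were 0.602 to 0.681 in leaf libraries and 1.34 to 1.40 in the young apex libraries, so scaling by library totals alone lowered the median log2 fold change of all transcripts, leaf over apex, to -1.28 in *Mtsoc1a* and -1.17 in the WT, against -0.09 and -0.13 under TMM. Under library totals 12985 transcripts were called lower and 2465 higher in *Mtsoc1a* leaves than in their apices, against 5880 and 5213 under TMM, and 12089 and 2709 in WT leaves, against 6051 and 5180. Medtr5g066730.1 and Medtr2g070020.1 stayed called as lower in the leaf, at -3.07 and -3.72 in *Mtsoc1a* and -4.004 and -3.08 in the WT. Medtr5g024450.1 had only 0.15 in *Mtsoc1a* (edgeR adjusted p = 0.473) and 0.49 in the WT (edgeR adjusted p = 0.0300). Both lay under the 2-fold threshold and neither was called, so the call of its leaf excess rests on the scaling. Medtr6g037340.1 had 0.92 in *Mtsoc1a*, just under the 2-fold threshold, and 1.77 in the WT, where it stayed called. Relative to the median of all transcripts, all of these values keep the direction they had under TMM.

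**Figure D3:**
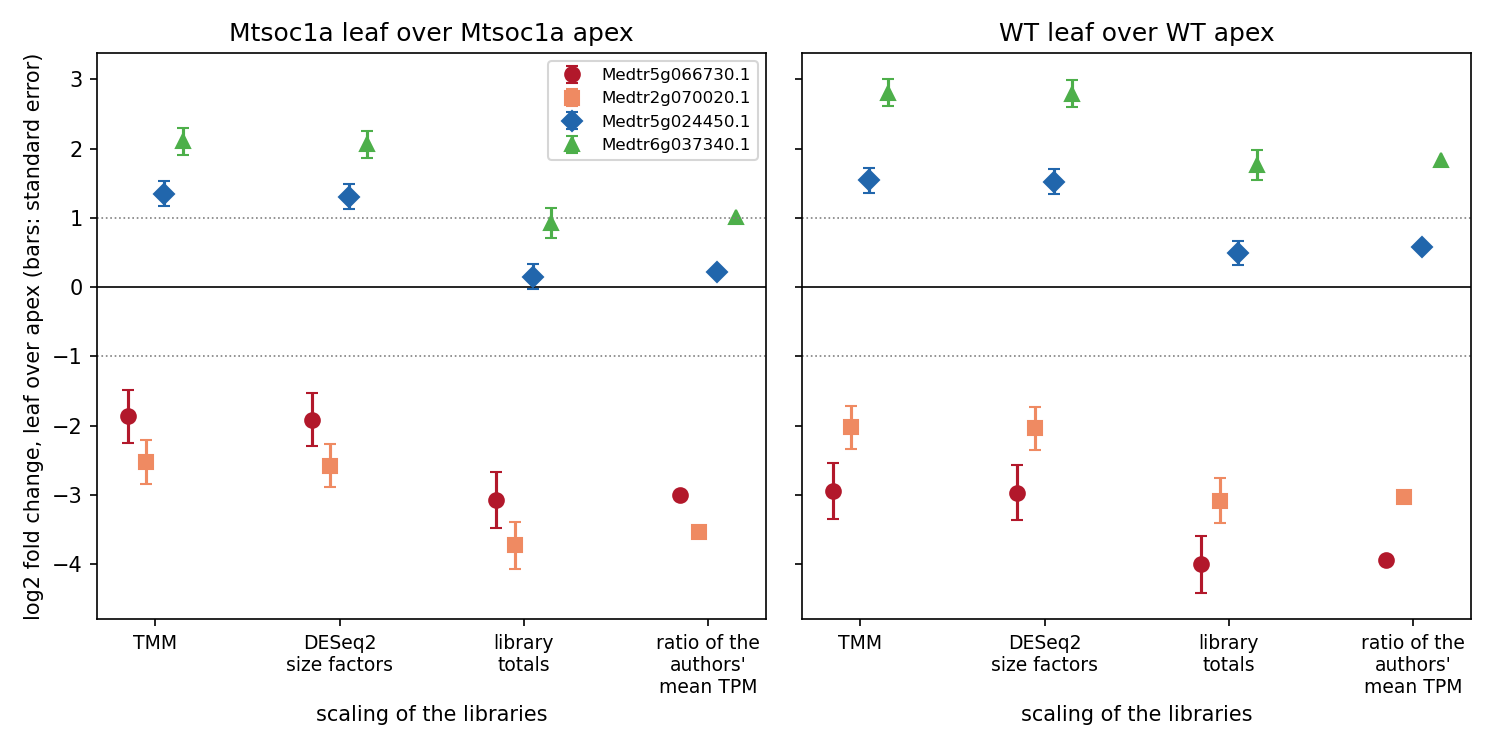
Log2 fold change of leaf over apex for each transcript in *Mtsoc1a* and in the WT under TMM, DESeq2 size factors and library totals (edgeR, bars are standard errors), with the log2 ratio of the authors' mean TPM, which has no error. All values move down by about the same amount under library totals and TPM, and Medtr5g024450.1 falls to 0.15 in *Mtsoc1a* and 0.49 in the WT under library totals.

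By the authors' mean TPM the leaf excess was likewise smaller than under TMM. Medtr5g066730.1 stood at 18.3 TPM in *Mtsoc1a* leaves and 147 TPM in *Mtsoc1a* apices, and at 9.004 TPM in WT leaves and 138 TPM in WT apices. Medtr2g070020.1 had 0.296 and 3.43 TPM in *Mtsoc1a* leaves and apices, and 0.442 and 3.60 TPM in WT leaves and apices. Medtr5g024450.1 differed least between tissues, with 2.70 TPM in *Mtsoc1a* leaves against 2.31 TPM in their apices, and 2.73 TPM in WT leaves against 1.83 TPM in WT apices. Medtr6g037340.1 had 23.3 TPM in *Mtsoc1a* leaves against 11.5 TPM in their apices, and 31.1 TPM in WT leaves against 8.70 TPM in WT apices.

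The order of the 5 groups was then read for each gene by mean CPM after TMM scaling. For Medtr5g066730.1 WT leaves and triple mutant apices overlapped at the bottom, *Mtsoc1a* leaves had a higher mean but overlapped both, and WT and *Mtsoc1a* apices overlapped at the top. For Medtr2g070020.1 triple mutant apices were lowest, the leaf groups overlapped above them, and the young apex groups overlapped at the top. For Medtr5g024450.1 the order was triple mutant apices, the overlapping young apices and the overlapping leaves. Medtr6g037340.1 had the same order, except that *Mtsoc1a* apices lay above WT apices without overlap, a difference that was not called. Over the 15 libraries, log2 CPM of Medtr5g066730.1 and Medtr2g070020.1 correlated at r = 0.887 and that of Medtr5g024450.1 and Medtr6g037340.1 at r = 0.935, values that describe libraries sharing tissue, genotype and age.

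AT4G08850 has 80 homologous transcripts in the study's table of homologs of SOC1-bound genes, so the 2 receptor kinases were set against the rest of their family; that table was filtered on expression in these samples. In the triple mutant against WT apices 78 were tested, of which 10 were called lower and 1 higher; leaving out the 2 receptor kinases described here, 8 of 76 were lower, or 10.53%, and 1 higher, against 4.83% and 1.6% of all transcripts. The median log2 fold change of those 76 was -0.11, against -0.03 over all transcripts tested. The homolog called higher was Medtr8g089200.1, with 20 to 37 counts in triple mutant libraries against 6 to 12 in WT apices, or 1.011, 1.474 and 1.844 CPM against 0.116, 0.133 and 0.283 CPM (log2 fold change 3.00, edgeR adjusted p = 0.0158). Medtr2g070020.1 and Medtr5g024450.1 had the lowest p values of the family among those called lower, in the comparison they were chosen from. The number of homologs of the 3 Arabidopsis genes called was 13 with the 4 genes included. It stayed 13 without triple mutant replicate 1 or WT apex replicate 3. It was 6 without triple mutant replicate 2 or replicate 3, and 5 without WT apex replicate 1 or replicate 2. In that order 5, 5, 5 and 4 were lower, always including the 4 genes, which were chosen for it. Over all transcripts 796 of 27128, 749 of 27121, 991 of 27044 and 800 of 26925 were called lower in those fits. The larger share lower in this family therefore depended on the libraries used.

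Between *Mtsoc1a* and the WT 0 of 78 tested homologs of AT4G08850 were called in apices with edgeR or DESeq2, where edgeR called 0.0154% of all transcripts; 6 had an unadjusted p under 0.05, as did 2615 of all 25935. In leaves 0 of 62 were called with edgeR, against 0.05% of all transcripts. Of these 62, 11 had an unadjusted p under 0.05, a larger share than the 2022 of all 21993, while in apices the family's share was the smaller. DESeq2 called 1 in leaves, Medtr4g094610.1, higher in *Mtsoc1a* (log2 fold change 2.02, DESeq2 adjusted p = 2.75e-05). Between tissues the family was split. In *Mtsoc1a* 32 of 79 tested homologs were called lower in the leaf (40.5%) and 14 higher (17.7%), against 22% and 19.5% of all transcripts. In the WT 27 were lower (34.2%) and 17 higher (21.5%), against 22.7% and 19.4% of all transcripts. Under library totals the leaf excess again shrank, with 43 lower and 7 higher among the homologs of all 3 Arabidopsis genes in *Mtsoc1a*, against 33 and 16 under TMM, and 39 lower and 9 higher in the WT, against 28 and 19.

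**Figure D4:**
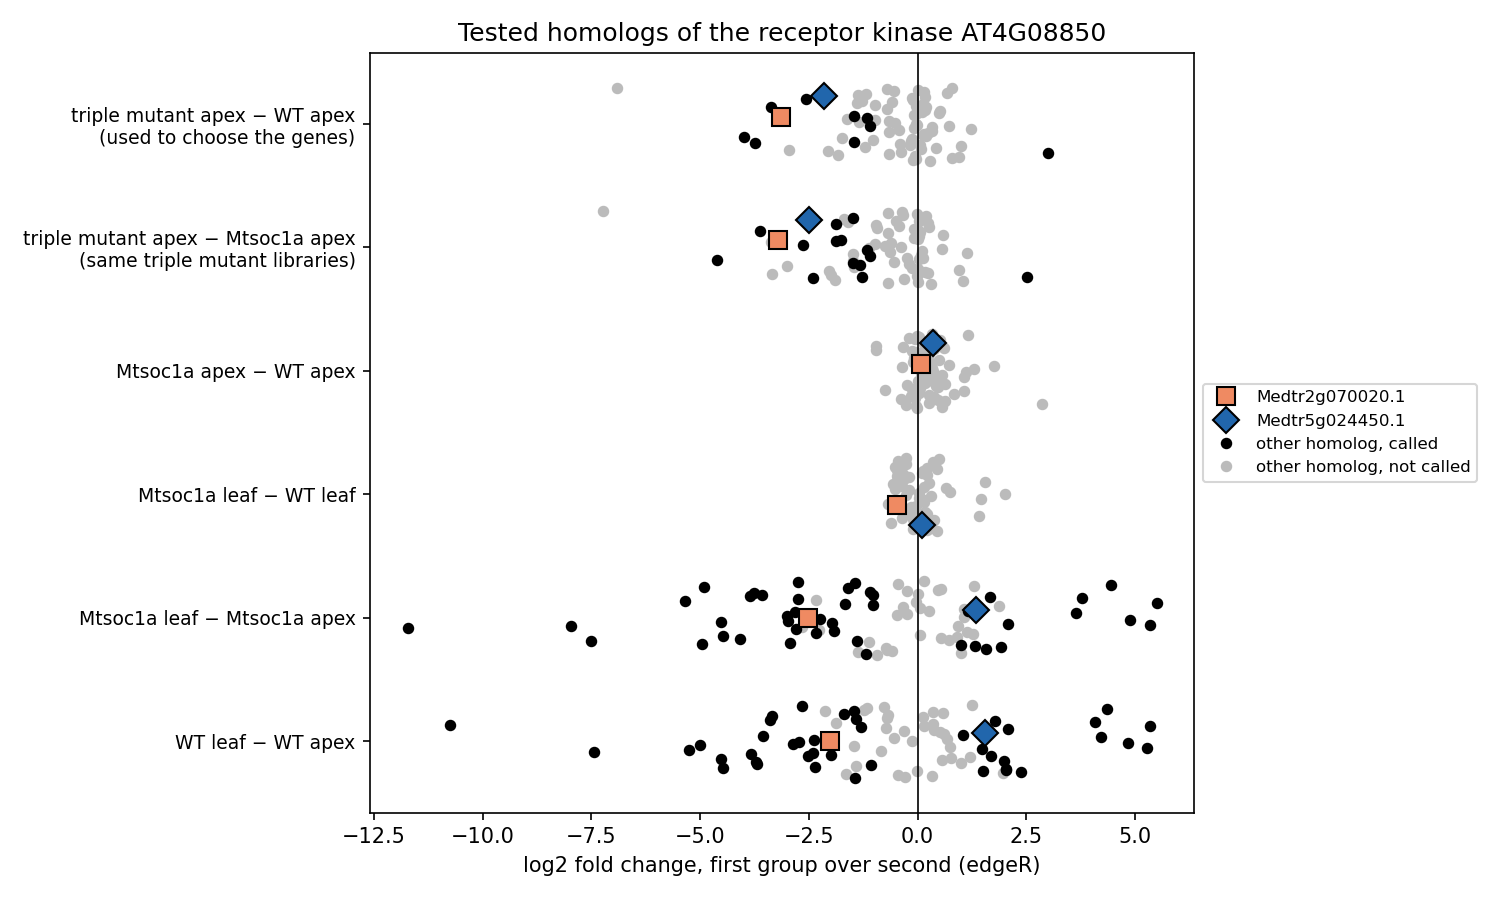
Log2 fold changes of the tested homologs of AT4G08850 in 6 comparisons (edgeR), with the called ones in black, the others in grey and Medtr2g070020.1 and Medtr5g024450.1 marked. Vertical scatter within a row only separates the points. In the comparisons with the triple mutant 1 homolog was called higher, and between *Mtsoc1a* and the WT none was called.

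The strongest tissue calls of the family showed larger differences than the 2 receptor kinases described here. Medtr1g040615.1 had 52.6 CPM in *Mtsoc1a* leaves and 1.35 CPM in their apices (log2 fold change 5.34), and 49.8 CPM in WT leaves and 1.27 CPM in WT apices (5.28). Medtr1g040545.1 and Medtr1g040555.1 were also leaf-high, at 4.87 and 4.45 in *Mtsoc1a* and 4.84 and 4.34 in the WT. In the other direction Medtr5g021670.1 had 1.40 CPM in *Mtsoc1a* leaves and 45.4 CPM in their apices (-4.95), and 1.72 CPM in WT leaves and 38.1 CPM in WT apices (-4.48). Medtr7g091680.1 had -3.86 in *Mtsoc1a* and -3.39 in the WT, Medtr1g069470.1 had -2.79 in *Mtsoc1a*, and Medtr5g045910.1 had -2.74 in the WT. Reads shared by close paralogs were divided by the authors' counting, so levels within this family are uncertain.

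By the authors' mean TPM the 2 receptor kinases were mid-range members of the 80. Medtr5g024450.1 ranked 44th of the 80 in the triple mutant at 0.472 TPM, 17th in *Mtsoc1a* leaves, 19th in WT leaves, 38th in *Mtsoc1a* apices and 35th in WT apices. Medtr2g070020.1 ranked 47th in the triple mutant at 0.459 TPM, 43rd in *Mtsoc1a* leaves, 36th in WT leaves, 30th in *Mtsoc1a* apices and 27th in WT apices. The highest homolog in apices was Medtr1g015530.1, with 90.2 TPM in the triple mutant, 68.5 TPM in *Mtsoc1a* apices and 64.3 TPM in WT apices, and in leaves it was Medtr5g096530.1, with 28.3 TPM in *Mtsoc1a* and 25.0 TPM in the WT.

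AT5G16010 has 1 other homolog in the table, Medtr6g043740.1, and it differed from Medtr6g037340.1 in the triple mutant. It had 5.87, 5.54 and 6.88 CPM there, against 5.62, 3.74 and 5.17 CPM in WT apices. The groups overlapped (log2 fold change 0.32 ± 0.22 SE, edgeR adjusted p = 0.366). *Mtsoc1a* apices had 4.57, 3.42 and 3.25 CPM, which overlapped the WT. Like Medtr6g037340.1 it was higher in the leaf, with 52.9 ± 2.61 CPM in *Mtsoc1a* leaves against 3.75 ± 0.72 CPM in their apices and 60.7 ± 6.28 CPM in WT leaves against 4.84 ± 0.98 CPM in WT apices (SD, n = 3 each; log2 fold changes 3.88 and 3.63, edgeR adjusted p = 3.77e-08 and 5.83e-08). AT2G30600 has 1 homologous transcript in the table, Medtr5g066730.1, so it has no family member to compare with.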

How the data were processed

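The authors trimmed reads and ran Salmon 0.8.2, which gives estimated counts for each transcript, on the transcriptome of the A17 reference genotype, although the plants were R108, and tested them with DESeq2 1.24.0. The deposited estimated counts were rounded and tested in R 4.3.3 with edgeR 4.0.16 (robust quasi-likelihood F-test, TMM, filterByExpr with a minimum count of 10), in fits of the 9 apex, the 6 leaf and the 12 young libraries, which tested 25935, 21993 and 26683 transcripts. A call needed a p, adjusted over all of them by Benjamini-Hochberg, of at most 0.05 and at least a 2-fold change. The deposited TPM values are the authors' group means and were not tested. DESeq2 1.42.0, other scalings, filters and sets of libraries were alternatives; scaling by library totals was added after the data were seen. The members and lists were chosen with earlier results of these data known. Named family members were the 3 called with the lowest p in each direction. Nothing states that replicates came from separate growings, so p-values measure the spread between these pooled samples. The test was checked on simulated counts. None of the 4 loci matched the reference gene table, so no sequence or coordinate is given.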

Additional observations from a re-analysis of the deposited data

How the results depend on the processing

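All 4 transcripts were called in the triple mutant against the WT and against *Mtsoc1a* apices under every alternative run. They were chosen on these triple mutant libraries, so nothing is read from this. Calls over all transcripts ran from 992 of 27121 to 4191 of 25935 against the WT. Against *Mtsoc1a* apices they ran from 1705 of 27121 to 5953 of 25935. None of the 4 was called in *Mtsoc1a* apices against WT apices. Scaling by library totals left 2 called in *Mtsoc1a* leaves against their apices and 3 in WT leaves against WT apices. Deviations of same-numbered apex libraries correlated at -0.0907 to 0.0243, within the -0.1155 to 0.1198 of differently numbered ones. In leaves same-numbered libraries correlated at -0.0424 to 0.144 and differently numbered ones at -0.1705 to 0.0598. Whether replicate numbers pair the leaf samples is therefore not settled. With a replicate block 1 of the 4, Medtr5g066730.1, was called higher in *Mtsoc1a* leaves (log2 fold change 1.10, edgeR adjusted p = 0.033). Its adjusted p was 0.068 with DESeq2 and 0.203 to 0.781 under the other alternatives, all in edgeR. With the block 6 homologs were called in the triple mutant against the WT, in place of 13. The cause of these changes was not tested. In *Mtsoc1a* leaves against WT leaves, 1 homolog, Medtr4g094610, was called with DESeq2 and with counts summed to loci, in place of 0. With the block the only homolog called was Medtr5g066730.1 itself. With each library left out in turn, 5 to 13 homologs were called in the triple mutant against the WT and 9 to 21 against *Mtsoc1a*, where all libraries gave 18; the fits had fewer samples. Uncalled fold changes of *Mtsoc1a* against the WT changed sign on the log2 scale. With each library left out they ran from -0.193 to 0.391 for Medtr2g070020.1 in apices (negative without *Mtsoc1a* replicate 3 or WT replicate 3), from -0.0684 to 0.415 for Medtr5g066730.1 in apices (negative without *Mtsoc1a* replicate 2 or WT replicate 3) and from -0.0388 to 0.297 for Medtr5g024450.1 in leaves (negative without *Mtsoc1a* replicate 3). Of the 12 transcripts most alike in pattern, 2 stayed among the nearest over the 12 libraries of 15-day-old plants and 1 with Spearman's correlation.

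Of all transcripts, edgeR called 4 in *Mtsoc1a* apices, 11 in *Mtsoc1a* leaves and 9 for the difference between tissues, where DESeq2 called 358, 226 and 381; with counts summed to loci edgeR called 51, 47 and 14, with the block 1, 47 and 0, and with all 15 libraries in one fit 3, 133 and 20. With each library left out these counts were 6 to 14, 2 to 10 and 0 to 38. Without a filter leaves had 19, and with library totals 5. With no fold threshold the triple mutant had 4191 calls against the WT, in place of 1667, and 5953 against *Mtsoc1a*, in place of 2544; without triple mutant replicate 3 it had 992 and 1705. The triple mutant's depth leaves Medtr5g024450.1, Medtr2g070020.1 and Medtr6g037340.1 at 21 to 61 counts in each of its libraries.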

Other observations

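The 3 transcripts whose log2(CPM + 1) followed each gene most closely over the 15 libraries (Pearson correlation, compared with 27339 transcripts) are a description of libraries that share tissue, genotype and age. Nearest to Medtr5g066730.1 were Medtr4g100380.1 (r = 0.962), Medtr5g018050.3 (r = 0.952) and Medtr1g026075.1 (r = 0.943). Nearest to Medtr2g070020.1 were Medtr8g077890.1 (r = 0.973), Medtr8g095520.1 (r = 0.970) and Medtr3g070970.1 (r = 0.969). Nearest to Medtr5g024450.1 were Medtr2g073260.1 (r = 0.986), Medtr2g437530.1 (r = 0.982) and Medtr7g013660.1 (r = 0.981). Medtr2g073260.1 had 7.40 ± 0.97 CPM in the triple mutant, 39.9 ± 4.22 CPM in *Mtsoc1a* leaves, 37.1 ± 4.15 CPM in WT leaves, 20.1 ± 3.47 CPM in *Mtsoc1a* apices and 15.8 ± 1.75 CPM in WT apices (SD, n = 3 each), the same order of groups as Medtr5g024450.1, and it was also nearest over the 12 libraries of 15-day-old plants (r = 0.985) and by Spearman's correlation (0.982). Nearest to Medtr6g037340.1 were Medtr5g032190.1 (r = 0.994), Medtr3g073180.1 (r = 0.993) and Medtr2g069210.1 (r = 0.992), out of 651 transcripts with r over 0.95; Medtr5g066730.1 had 2 such transcripts.

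One receptor kinase homolog, Medtr4g105370.1, singled out after its values were seen, moved in opposite directions in the 2 tissues of *Mtsoc1a* without overlap of the groups. It had 24.1, 17.2 and 21.9 CPM in *Mtsoc1a* leaves against 27.1, 24.8 and 32.5 CPM in WT leaves, and 21.7, 22.8 and 18.6 CPM in *Mtsoc1a* apices against 17.3, 17.8 and 14.5 CPM in WT apices. The difference between its effects was -0.71 ± 0.22 on the log2 scale (SE) and did not pass the correction over all transcripts (edgeR adjusted p = 0.451). The share of homologs, or of all transcripts, with opposite directions and no overlap was not counted. Nothing is therefore read from the pattern of this homolog.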
